A study of Mus musculus with 12 samples.

Results

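The RNA studied was precipitated with ribosomes tagged in hippocampal CA1 pyramidal neurons. In it, the enzymes that make, destroy and respond to cyclic AMP, and the proteins that anchor its kinase, were followed. They were taken by symbol as the numbered adenylyl cyclases (Adcy), the cyclic nucleotide phosphodiesterases (Pde), the catalytic and regulatory subunits of the cyclic AMP-dependent kinase PKA (Prkaca, Prkacb, Prkar1a, Prkar1b, Prkar2a and Prkar2b) and the A-kinase anchoring proteins with numbered symbols (Akap). Of 24079 genes in the deposited count table, 54 carried such a symbol and 53 had at least 15 reads summed over the libraries. These 53 members were 10 cyclases, 22 phosphodiesterases, 2 catalytic subunits, 4 regulatory subunits and 15 anchors, out of 17823 genes tested. Akap4, an anchor of the sperm flagellum, had 0 reads in every library and was the only match left out.

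Both genotypes carried the Wfs1-CreERT2 and RiboTag transgenes, so that tamoxifen (100 mg/kg on 3 days) switched on an HA tag on the ribosomal protein Rpl22 in cells that express Wfs1. The Fmr1-/y males also lacked Fmr1, the gene of the RNA-binding protein FMRP whose silencing causes fragile X syndrome, and their wild-type male littermates kept it. Tagged ribosomes were immunoprecipitated from whole hippocampus of mice aged 2 to 6 months, 1 week after tamoxifen, and each of the 6 libraries per genotype was made from a pool of 4 to 6 mice. The pools are separate samples, so each value is an average over animals. The tag is limited to cells with an active Wfs1 promoter, but the RNA that came down with HA also held markers of other cells. The comparison asks which of these mRNAs differ in ribosome-bound level when FMRP is absent.

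Cyclic AMP is made from ATP by adenylyl cyclases, which answer to G protein-coupled receptors and, for some of them, to calcium. It releases the catalytic subunits of PKA from the regulatory subunits, and phosphodiesterases end the signal. Anchors hold PKA beside its substrates, so that the same messenger can act separately at the synapse, the mitochondrion or the nucleus. In CA1 pyramidal neurons the pathway is known for its part in long-term potentiation and memory, through receptor phosphorylation and the transcription factor CREB.

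Libraries held 39400980 to 65565479 reads on genes. Fmr1 had at least 1971 reads in each wild-type library and at most 1 read in any Fmr1-/y library. The 8 markers of CA1 pyramidal cells summed to 7937 to 9748 CPM (per-million read counts after TMM scaling of library sizes) in wild-type and 7587 to 9070 CPM in Fmr1-/y libraries. All 8 had log2 fold changes below 0 (Fmr1-/y over wild type), from -0.27 for Wfs1 to -0.05 for Slc1a1. Wfs1, Neurod6 and Mpped1 had the 3 unadjusted p under 0.05 in that list, and all 3 were lower in Fmr1-/y libraries. Markers of other cells were present in both genotypes, and no marker in any list was at 0 in any library. At that level of p there were 0 of 6 oligodendrocyte, 0 of 5 microglial, 0 of 8 GABAergic and 0 of 4 dentate granule cell markers, 1 of 4 CA3 markers (higher) and 2 of 4 CA2 markers (1 higher, 1 lower). The 6 astrocyte markers summed to 723 to 876 CPM in wild-type and 796 to 1240 CPM in Fmr1-/y libraries, with 3 of 6 genes at an unadjusted p under 0.05, all higher. The 4 choroid plexus markers summed to 6193 to 11596 and 8099 to 17095 CPM, with 2 of 4 genes at that level, and the 5 endothelial and mural markers to 44.0 to 65.7 and 53.4 to 76.0 CPM, with 2 of 5, all higher. Ttr of the choroid plexus averaged 9821 CPM over all libraries, above Camk2a of the CA1 list at 6016 CPM. Levels and shares below are therefore those of the precipitated RNA as a whole. Because bulk RNA was sequenced, fewer cells of a type and less RNA per cell cannot be told apart, and RNA from untagged cells cannot be separated out. The part of these cells in the results that follow was not tested.

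The regulatory region that the pathway itself is known to act on is the cyclic AMP response element, the palindrome TGACGTCA bound by CREB. RefSeq promoter windows (build GRCm38.p6, 250 bases before to 50 after a start site) were found for 43 of the 53 members, 84 windows in all. The palindrome stood in 2 of the 84 windows (2.38%), against 588 of 32851 windows of all genes (1.79%). Both were overlapping windows of Prkar1a and held the same element. Its core motif, TGACG or the reverse complement CGTCA, which the palindrome also contains, stood in 17 of 84 windows (20.2%), against 20.8% of all windows. Windows of Prkar1a, the member with the highest level per kilobase, and of Pde8b, Pde4a and Pde1a are printed with the element or core motif in capitals. These phosphodiesterases were picked for having both the motif and an unadjusted p under 0.05 in edgeR's comparison of genotypes. They were the only ones under that p among the 15 members with the motif. Pde11a and Akap8, also under it, were not among the 15. A link between motif and genotype was not tested. The element starts at position -49 from the start site in Prkar1a, and the core motifs at 38 in Pde8b, -50 in Pde4a and -166 in Pde1a. The windows lie at chr11:109650699-109650998 (+), chr13:95223001-95223300 (-), chr9:21183851-21184150 (+) and chr2:80038853-80039152 (-), in that order.
Prkar1a: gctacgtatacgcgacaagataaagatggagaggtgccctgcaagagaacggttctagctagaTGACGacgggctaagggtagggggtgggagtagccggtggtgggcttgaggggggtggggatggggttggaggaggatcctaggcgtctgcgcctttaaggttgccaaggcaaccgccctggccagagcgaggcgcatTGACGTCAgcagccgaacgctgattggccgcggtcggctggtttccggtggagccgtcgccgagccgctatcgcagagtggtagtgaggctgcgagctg
Pde8b: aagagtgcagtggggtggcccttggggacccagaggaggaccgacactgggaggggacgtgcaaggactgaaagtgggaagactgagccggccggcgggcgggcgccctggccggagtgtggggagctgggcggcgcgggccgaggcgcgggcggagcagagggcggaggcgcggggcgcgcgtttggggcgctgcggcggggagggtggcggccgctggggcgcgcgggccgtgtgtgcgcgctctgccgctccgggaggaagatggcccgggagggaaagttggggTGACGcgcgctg
Pde4a: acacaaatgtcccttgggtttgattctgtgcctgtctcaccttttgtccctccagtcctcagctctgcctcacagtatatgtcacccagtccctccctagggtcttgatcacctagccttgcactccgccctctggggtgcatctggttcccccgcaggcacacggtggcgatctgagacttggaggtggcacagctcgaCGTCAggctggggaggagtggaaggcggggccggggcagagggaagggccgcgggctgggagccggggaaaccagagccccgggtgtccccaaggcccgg
Pde1a: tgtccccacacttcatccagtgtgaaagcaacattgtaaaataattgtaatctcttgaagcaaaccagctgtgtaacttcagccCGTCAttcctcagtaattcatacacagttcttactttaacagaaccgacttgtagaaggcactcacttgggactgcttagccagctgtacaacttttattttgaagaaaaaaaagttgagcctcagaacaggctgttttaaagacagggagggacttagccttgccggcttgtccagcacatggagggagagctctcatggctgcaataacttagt
A match is only a match of letters, and these windows cover 1 of the start sites of each gene.

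Levels of different genes were compared as CPM per kilobase (kb) of exon. The regulatory subunits were the most abundant class, with a summed level of 467 ± 29.6 CPM per kb in wild-type and 462 ± 34.1 in Fmr1-/y libraries (SD, n = 6 each). The phosphodiesterases followed with 325 ± 7.54 and 311 ± 15.9, the cyclases with 214 ± 19.0 and 198 ± 23.3, the anchors with 155 ± 3.89 and 157 ± 14.8, and the catalytic subunits with 111 ± 4.60 and 110 ± 3.98 CPM per kb. The ranges of the genotypes overlapped in each class. The ratio of summed regulatory to summed catalytic mRNA per kb was 4.20 ± 0.176 in wild-type and 4.19 ± 0.243 in Fmr1-/y libraries (SD, n = 6 each).

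**Figure D1:**
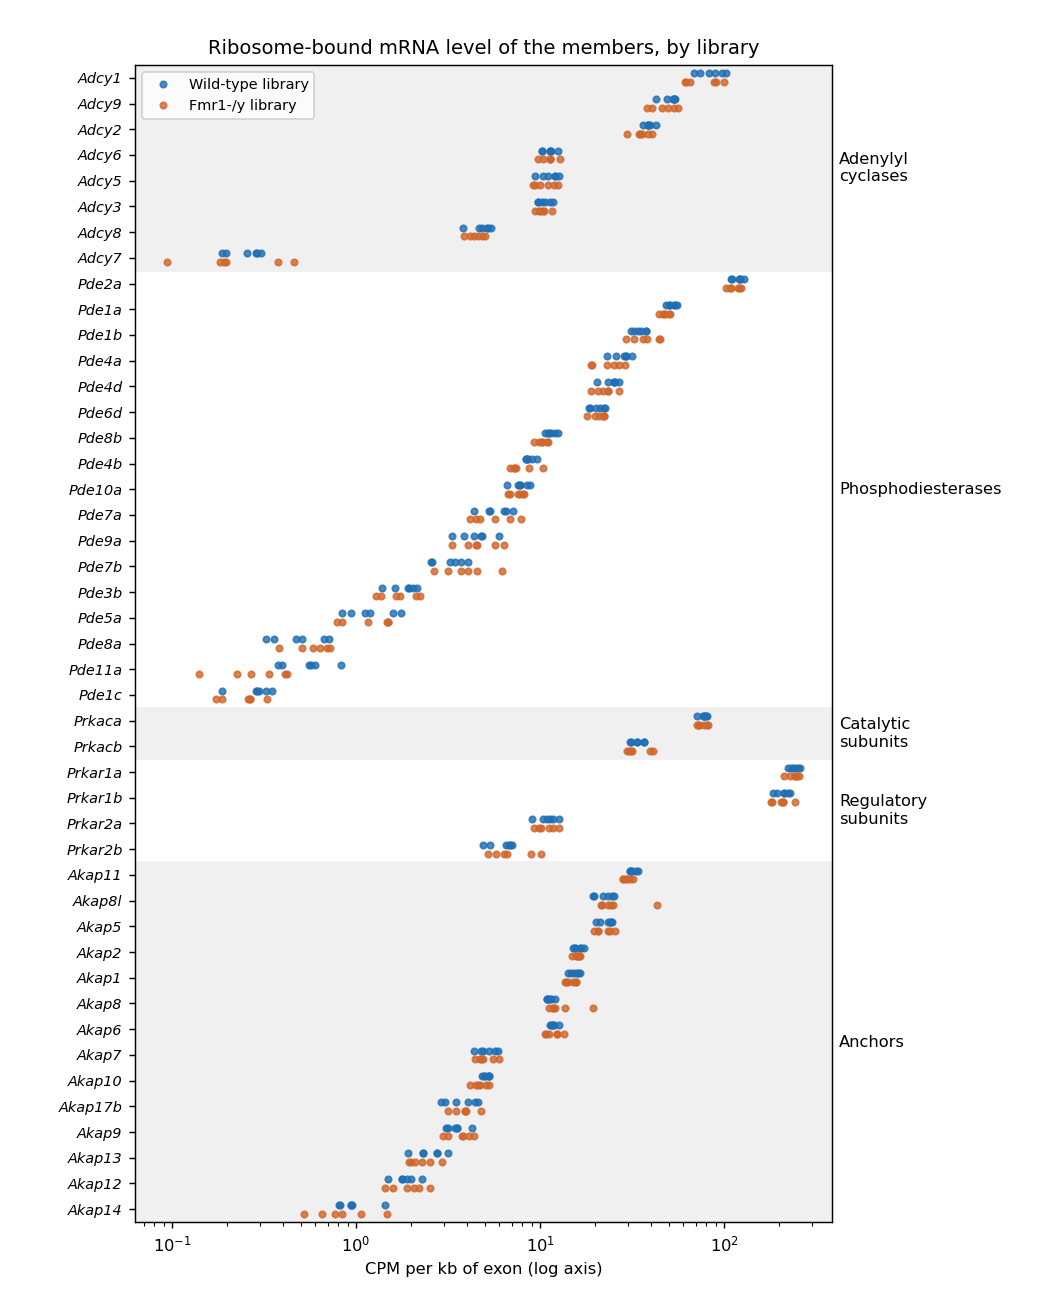
Level of each member with a mean of at least 1 CPM, in CPM per kb of exon on a log axis, grouped by class and ordered by level. Each point is 1 library (blue, 6 wild type; orange, 6 Fmr1-/y). Prkar1a and Prkar1b lie highest, Pde2a leads the phosphodiesterases and Adcy1 the cyclases, and the colours overlap in every row.

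Adcy1, the cyclase stimulated by calcium and calmodulin that is known for hippocampal potentiation, was the main cyclase mRNA. It made up 39.8 ± 2.76% of the summed cyclase level per kb in wild-type and 38.9 ± 4.00% in Fmr1-/y libraries (SD, n = 6 each). Adcy9, a widely expressed cyclase with weak forskolin sensitivity, followed with 23.8 ± 1.04% in wild type, and Adcy2, a cyclase stimulated by G protein beta-gamma subunits, with 18.4 ± 2.15%. Adcy6, Adcy5 and Adcy3 lay close together at 11.2, 10.97 and 10.4 CPM per kb over all libraries and did not separate beyond their spread with these exon lengths. Adcy8, the other strongly calcium-stimulated cyclase of forebrain, measured 4.67 CPM per kb, so that Adcy1, Adcy3 and Adcy8, the calcium-stimulated group, held 47.1 ± 2.52% of the class in wild type. Adcy5 and Adcy6, which calcium inhibits, held 10.5 ± 0.624%. Adcy7, Adcy4 and the soluble, bicarbonate-sensitive Adcy10 measured 0.251, 0.220 and 0.0250 CPM per kb.

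Pde2a, which hydrolyses cyclic AMP and is stimulated by cyclic GMP, was the main phosphodiesterase mRNA with 36.5 ± 2.06% of the class in wild-type and 36.6 ± 1.83% in Fmr1-/y libraries (SD, n = 6 each). The calcium- and calmodulin-dependent Pde1a and Pde1b came next with 16.0 ± 0.721% and 10.7 ± 0.678% in wild type. The families that act on both nucleotides together made up 66.5 ± 1.98%, the families specific for cyclic AMP 25.4 ± 2.12%, and those specific for cyclic GMP 1.80 ± 0.267% of the class in wild type. The remaining 6.32 ± 0.529% was Pde6d, which is counted in the class sum and in every share of it. Pde4a and Pde4d, members of the rolipram-sensitive family, stood at 27.9 ± 3.02 and 24.4 ± 2.28 CPM per kb in wild-type libraries and overlapped. That overlap depended on the exon length taken for Pde4d, as given below. Pde6d, a carrier of prenylated proteins rather than an enzyme, measured 20.7 CPM per kb over all libraries, whereas the photoreceptor enzymes Pde6a, Pde6b and Pde6c measured 0.0259, 0.0427 and 0.0140. Pde10a, the striatal enzyme for both nucleotides, measured 7.68 CPM per kb, and Pde9a and Pde5a, which act on cyclic GMP, 4.64 and 1.22 CPM per kb.

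The type I regulatory subunits, which are known mainly from soluble PKA, carried nearly the whole class. Prkar1a accounted for 51.5 ± 0.585% and Prkar1b, the neuronal isoform, for 44.8 ± 0.859% of regulatory mRNA per kb in wild type, together 96.3 ± 0.491%, against 96.1 ± 0.604% in Fmr1-/y libraries (SD, n = 6 each). Prkar1a exceeded Prkar1b in each of the 12 libraries, since its lowest share in either genotype was 49.5% and the highest share of Prkar1b was 47.0%. The type II subunits, the ones that most anchors bind, were low: Prkar2a 10.9 and Prkar2b 6.71 CPM per kb over all libraries. Among catalytic subunits Prkaca held 69.6 ± 1.71% in wild-type and 69.3 ± 4.01% in Fmr1-/y libraries, and Prkacb the rest.

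The anchors were spread over more genes. Akap11, a large vesicle-associated anchor that can bind type I subunits, was highest with 20.6 ± 0.700% of the class in wild type. Akap5, the postsynaptic anchor that also binds calcineurin, held 14.8 ± 0.974%, and Akap8l, a nuclear protein, 14.4 ± 1.39%. Akap2, the mitochondrial Akap1, the nuclear Akap8 and the perinuclear Akap6 followed at 16.0, 15.1, 12.3 and 11.8 CPM per kb over all libraries. Akap9 of the Golgi and centrosome and the scaffold Akap12 measured 3.61 and 1.91 CPM per kb, and Akap3, another sperm anchor, 0.0332.

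**Figure D2:**
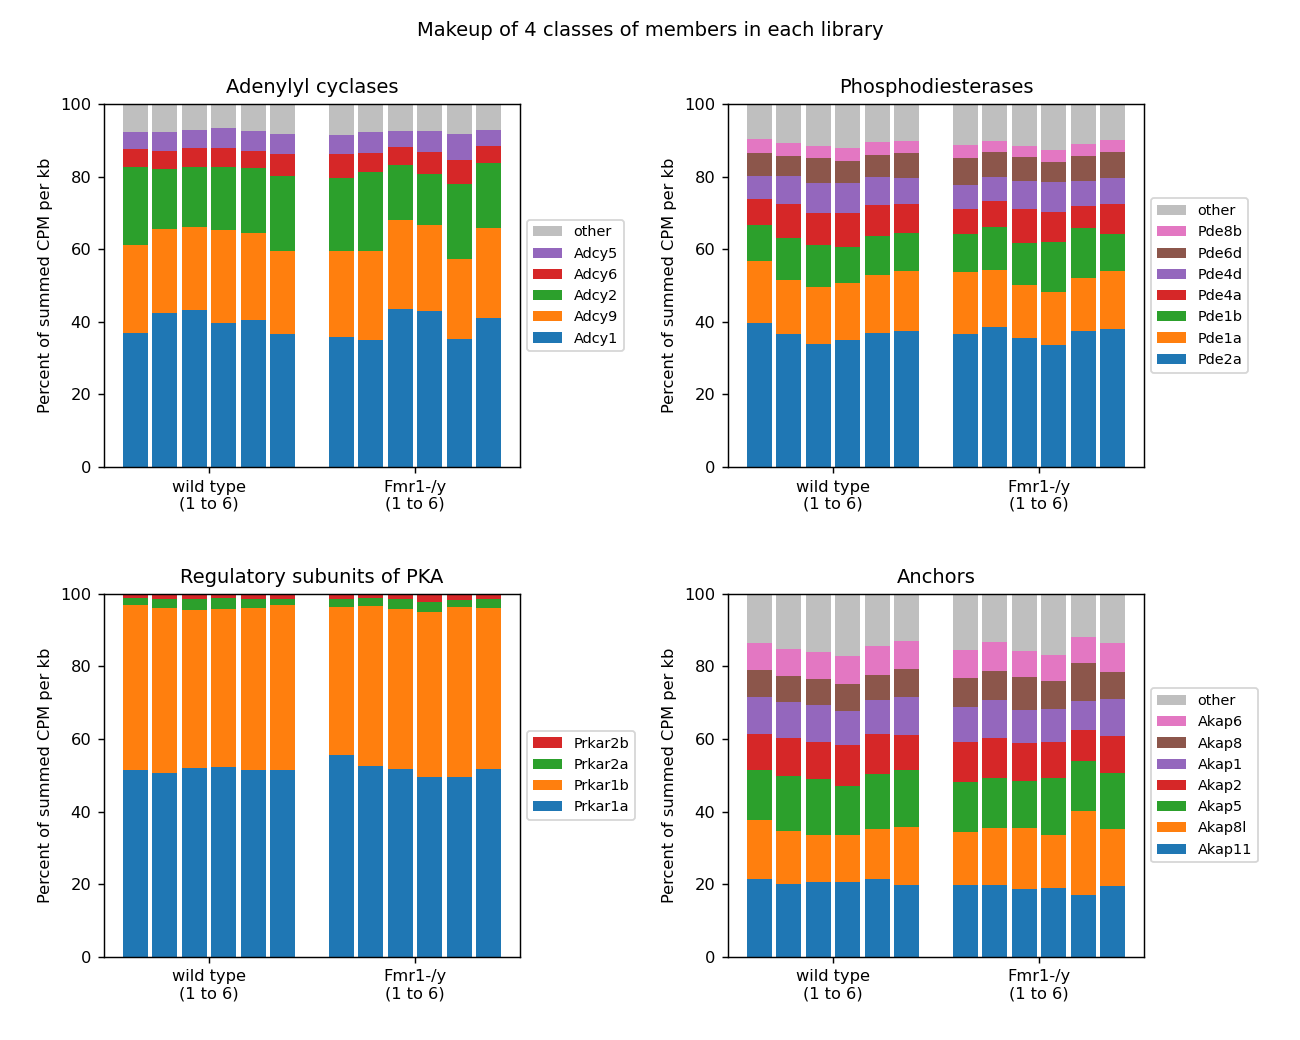
Percent of the summed CPM per kb that each member took in 4 classes, as 1 stacked bar per library (wild type 1 to 6, then Fmr1-/y 1 to 6). Adcy1, Pde2a, Prkar1a with Prkar1b, and Akap11 are the main parts in both genotypes, and Akap8l takes 23.1% of the anchors in Fmr1-/y library 5.

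These shares rest on exon lengths of transcripts shared by GENCODE and RefSeq. With the exons of all annotated transcripts, a choice made after seeing the data, Adcy1 (40.3%), Pde2a (39.3%), Prkaca (79.4%), the type I subunits (96.0%) and Akap11 (22.2%) still led their classes in wild type. Pde4d, whose exon length is 2554 bases in the first model and 12006 in the second, went from 7.51% to 2.33% of the phosphodiesterases and Akap8l from 14.4% to 7.56% of the anchors. In the second model Pde4d, at 1.92 to 2.58% over wild-type libraries, no longer overlapped Pde4a, at 7.46 to 10.1%. Adcy3, at 3.61 to 4.08% of the cyclases over wild-type libraries, lay below Adcy6 (4.29 to 5.57%) and Adcy5 (4.72 to 5.59%) in the second model. The distance between classes also moved. Wild-type phosphodiesterases and cyclases summed to 223 ± 5.73 and 208 ± 18.5 CPM per kb in the second model. Their ratio was 1.08 (0.963 to 1.24 over libraries), against 1.52 (1.37 to 1.75) in the first, so their order was not fixed. The ratio of regulatory to catalytic mRNA was 3.79 ± 0.135 in wild type.

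None of the 53 members passed an adjusted p of 0.05 between the genotypes with edgeR's quasi-likelihood F test after Benjamini-Hochberg correction over the whole table, where 4 of 17823 genes did (0.0224%). DESeq2's Wald test also called 0 members, against 84 genes (0.471%), and limma voom 0, against 4 genes (0.0224%). At an unadjusted p under 0.05 in edgeR there were 5 members (9.43%), against 7.96% of all genes. Of the 5, 4 were lower in Fmr1-/y libraries (3.67% of all genes were lower at that level) and 1 was higher (4.29% of all genes). DESeq2 gave 6 members at an unadjusted p under 0.05 (8.46% of all genes) and limma voom 5 (7.89%). In no member did the libraries of the genotypes fail to overlap, which was seen in 0.623% of all genes. The share of members at an unadjusted p under 0.05 in edgeR was thus near that of all genes in both directions together. For lower genes alone it was 7.55% of members, against 3.67% of all genes. The median level was 47.3 CPM in members and 13.3 CPM in all genes. Of the 38 members at a mean of 10 CPM or more, 3 were lower at that p (7.89%), against 4.75% of all genes at 10 CPM or more.

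The log2 fold changes, Fmr1-/y over wild type, ran from -0.88 to 2.33 with a median of -0.035, against 0.004 over all genes tested. Of the 53 members, 35 were below 0 (66.04%), against 48.6% of all genes. Without TMM, with library totals alone, the percentage below 0 was 54.7% of members and 41.9% of all genes. Of the 38 members at a mean of 10 CPM or more, the estimates ran from -0.24 to 0.31, and in 37 the 95% confidence interval lay within 1.5-fold in either direction. Pde7b was the exception. Differences of 1.5-fold or more were therefore outside the interval for 37 of the 38 well-measured members, and no smaller difference passed the adjusted threshold. For 8 members below 1 CPM the intervals were wide, and in Pde6c, with 20 reads in Fmr1-/y and 3 reads in wild-type libraries, 5 wild-type libraries stood at 0 reads, which allows up to 3 reads in each, or 0.0558 to 0.0760 CPM in those libraries.

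**Figure D3:**
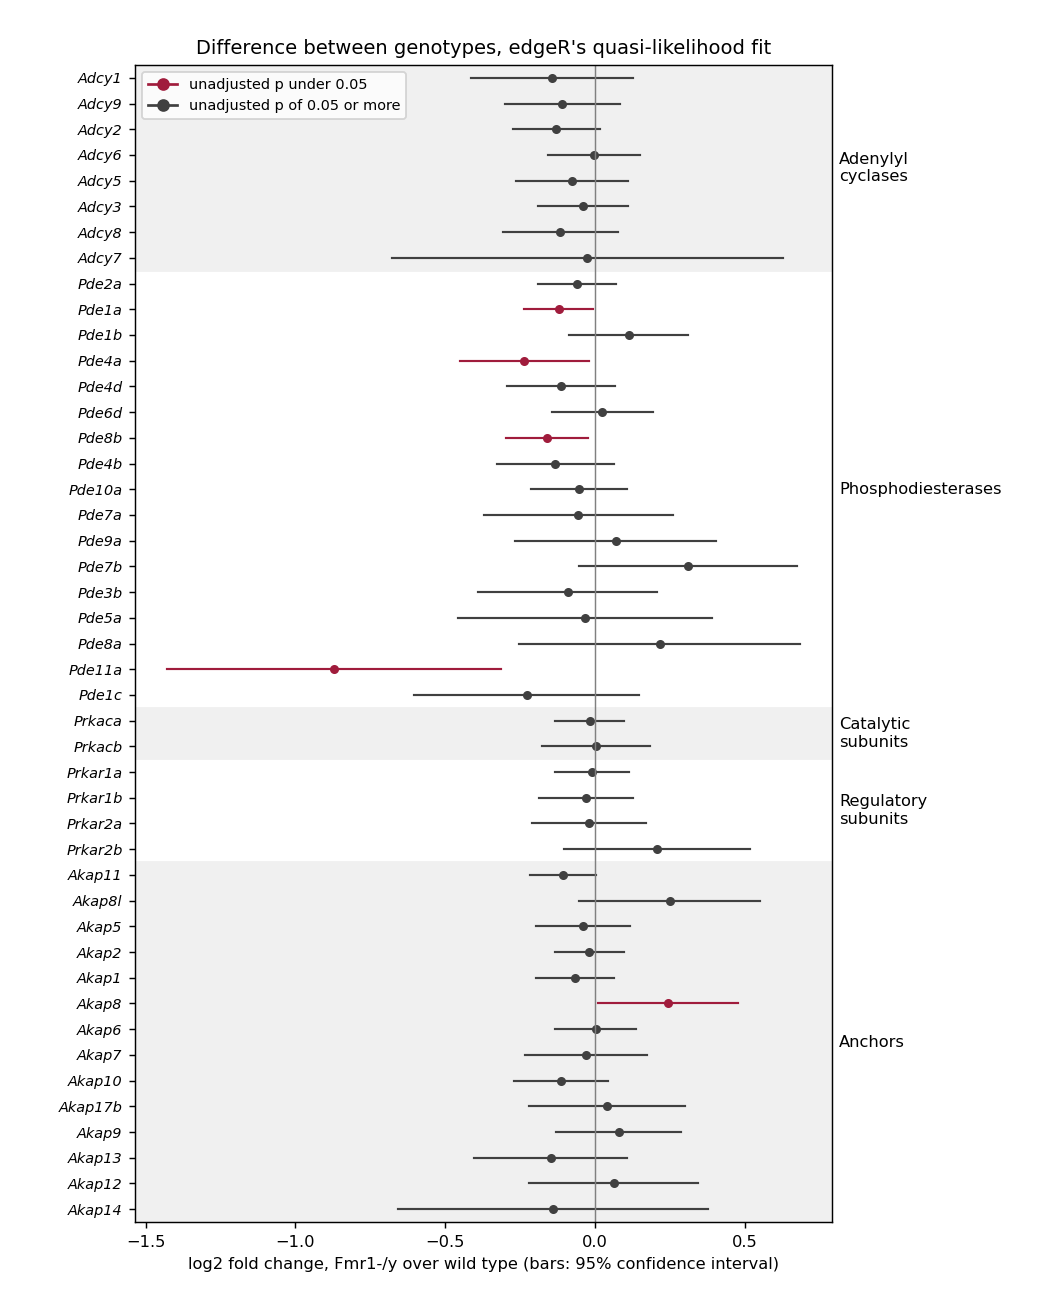
log2 fold change (Fmr1-/y over wild type) with its 95% confidence interval from edgeR's fit, for each member with a mean of at least 1 CPM. Red marks the 5 members with an unadjusted p under 0.05 (Pde1a, Pde4a, Pde8b, Pde11a, Akap8). The intervals of the abundant members are narrow around 0, and Pde11a lies farthest from it at -0.87.

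Of the 10 cyclases, 9 had a log2 fold change below 0 (90%, against 48.6% of all genes). Among the 9 was Adcy6 at -0.004, whose sign depended on the setting. At an unadjusted p under 0.05 there were 0 of the 10 cyclases in edgeR, DESeq2 or limma voom. The median log2 fold change of the class was -0.094. Adcy1 (Entrez 432530, chromosome 11 from 7063433 to 7178506, GRCm38) had a lowest, median and highest level of 838, 1057 and 1257 CPM in wild-type libraries. In Fmr1-/y libraries these were 749, 941 and 1220 CPM. 3 Fmr1-/y libraries lay below the lowest wild-type library and the others within the wild-type range. The log2 fold change was -0.14 (standard error 0.13, 95% confidence interval -0.41 to 0.13, edgeR adjusted p = 0.850).

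The spread of Adcy1 between libraries of a genotype was 15.6% of the mean in wild-type and 21.6% in Fmr1-/y libraries, where counting error alone is 0.460%. The median over the 38 well-measured members was 11.1%, and 9.67% over all genes at 10 CPM or more. Fmr1-/y libraries 1 and 5, at 759 and 749 CPM, were the lowest of the 12 for Adcy1. They were also the lowest of the 12 for Adcy9 (211 and 198 CPM) and for Pde4a (107 and 106 CPM). Their depths were 52654950 and 65565479 reads, against 39400980 to 55745464 reads in wild type. Their choroid plexus sums were 17095 and 11459 CPM, against 6193 to 11596 CPM in wild type. The sums between them, 13470.5 CPM in Fmr1-/y library 4 and 11596 CPM in wild-type library 3, came with Adcy1 at 1104 and 1257 CPM. The part of depth or of other cells in this spread was not tested.

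Adcy2 (chromosome 13 from 68620043 to 68999600) was at 153, 163 and 181 CPM in wild-type libraries, again lowest, median and highest, and at 126, 149 and 172 CPM in Fmr1-/y libraries. 4 of the 6 Fmr1-/y libraries were below every wild-type library, but the highest reached into the wild-type range. Its log2 fold change was -0.13 (standard error 0.07, interval -0.28 to 0.02, unadjusted p = 0.0786 and adjusted p = 0.692 in edgeR). The unadjusted p of Adcy2 was 0.00765 with 1 surrogate variable, 0.0484 with the replicate number as a block and 0.0238 without Fmr1-/y library 2, and none of these passed the adjustment (adjusted p 0.265, 0.593 and 0.514). It was 0.05 or more in 11 of 12 fits with a library left out. The other tools, scalings and filters gave 0.0672 (limma voom) to 0.0850 (DESeq2). Adcy9 had -0.11 (interval -0.30 to 0.08), Adcy8 -0.12 (-0.31 to 0.08), Adcy5 -0.08 (-0.27 to 0.11) and Adcy6 0.00 (-0.16 to 0.15).

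The 4 lower members at an unadjusted p under 0.05 were all phosphodiesterases, 4 of 22 tested (18.2%, against 3.67% of all genes lower at that p). At that p, 0 of 10 cyclases and 0 of 15 anchors were lower. The class is set beside all genes here because the 4 fell in it, and no test of the class was run. Among the 4, Pde4a and Pde8b are specific for cyclic AMP. Pde11a (Entrez 241489, chromosome 2 from 75985808 to 76339145), an enzyme for both nucleotides whose hippocampal expression is known mainly from ventral CA1, had the smallest p. Its 6 wild-type libraries held 1.65, 2.40, 2.34, 3.45, 2.51 and 1.57 CPM in order of replicate. The Fmr1-/y libraries held 1.13, 1.41, 0.587, 1.77, 1.72 and 0.947 CPM. 4 Fmr1-/y libraries were below the lowest wild-type library, 4 wild-type libraries were above the highest Fmr1-/y library, and the other libraries overlapped. The mean went from 2.32 ± 0.680 to 1.26 ± 0.461 CPM (SD, n = 6 each), 54.6% of wild type (95% confidence interval 37.1 to 80.3%). The log2 fold change was -0.87 (standard error 0.26, unadjusted p = 0.00413 in edgeR, and adjusted p = 0.358 in edgeR, 0.113 in DESeq2 and 0.390 in limma voom). The gene rests on few reads, 26 to 140 per library and 1008 in all. Across the other settings the adjusted p of Pde11a lay between 0.113 and 0.680, and its unadjusted p from 0.00219 to 0.0149 when single libraries were left out.

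Pde8b (chromosome 13 from 95024105 to 95250401), a high-affinity cyclic AMP phosphodiesterase, had 49.1, 52.5 and 57.8 CPM in wild-type and 43.1, 47.4 and 50.9 CPM in Fmr1-/y libraries (lowest, median, highest). 5 of 6 wild-type libraries were above every Fmr1-/y library. The fitted level was 89.4% of that in wild type, a log2 fold change of -0.16 (standard error 0.07, unadjusted p = 0.0229, adjusted p = 0.524 in edgeR). Pde4a (chromosome 9 from 21165700 to 21213248) ran from 129 to 176 CPM with a median of 161 in wild type, and from 106 to 161 CPM with a median of 135 in Fmr1-/y libraries, so that 3 libraries of each genotype lay outside the range of the other. The Fmr1-/y level was 84.9% of that in wild type, a log2 fold change of -0.24 (standard error 0.10, unadjusted p = 0.0326, adjusted p = 0.572 in edgeR). Pde1a (chromosome 2 from 79834453 to 80196522) had 243, 261 and 278 CPM in wild-type and 223, 237 and 256 CPM in Fmr1-/y libraries. The fitted level was 91.9% of that in wild type, a log2 fold change of -0.12 (standard error 0.06, unadjusted p = 0.0394, adjusted p = 0.595 in edgeR). None of the 4 passed the adjustment. The part of the CA1 pyramidal markers, which were also lower, in these 4 genes was not tested. With each of the 12 libraries left out in turn, the unadjusted p stayed under 0.05 in 12 of 12 fits for Pde11a, 9 for Pde8b, 5 for Pde4a and 5 for Pde1a.

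**Figure D4:**
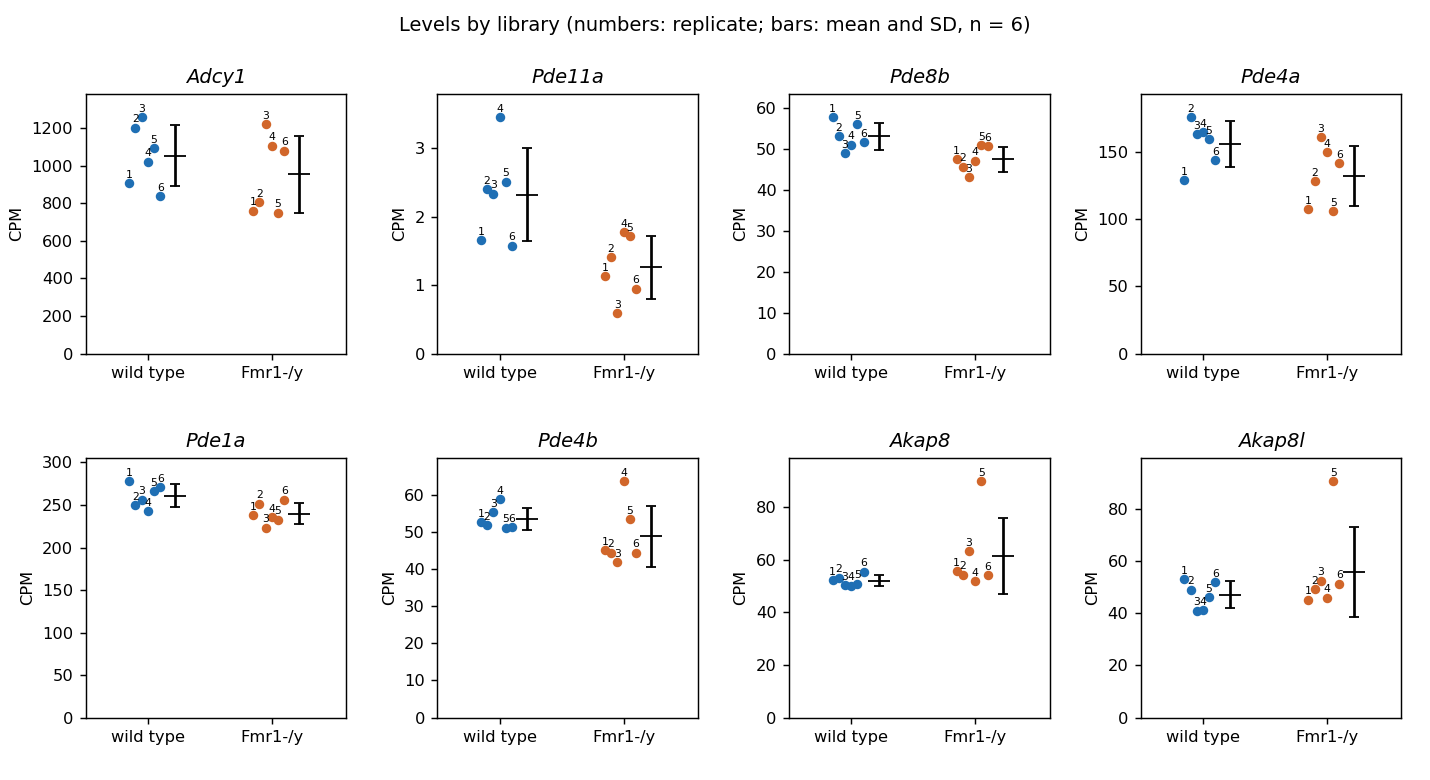
CPM in every library for 8 members, axes starting at 0, with the mean and SD of 6 libraries beside the points and the replicate number above each point. Pde11a, Pde8b, Pde4a and Pde1a overlap between the genotypes with lower means in Fmr1-/y libraries, Adcy1 spreads from 749 to 1257 CPM, and Akap8 and Akap8l are at 89.9 and 90.5 CPM in Fmr1-/y library 5.

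The relatives of these genes did not share 1 direction. Pde1b had a fitted level of 108% of that in wild type, a log2 fold change of 0.11 (interval -0.09 to 0.31), with 3 Fmr1-/y libraries above every wild-type library and 1 below. Pde2a, the most abundant phosphodiesterase (chromosome 7 from 101421691 to 101512829), had 507, 567 and 601 CPM in wild-type and 480, 533 and 576 CPM in Fmr1-/y libraries. Its log2 fold change was -0.06 (interval -0.19 to 0.07, adjusted p = 0.883 in edgeR). Its annotated exons share 150 bases with Arap1 on the same strand, where the authors' counting leaves reads unassigned. Pde4d was at -0.12 (interval -0.29 to 0.07) and Pde10a at -0.06 (-0.22 to 0.11), both log2 fold changes. Pde7b was the highest of the measured cyclic AMP-specific enzymes at 0.31 (-0.05 to 0.67), with 25.6 CPM in Fmr1-/y library 5 and at most 18.8 CPM elsewhere. Without that library it was at 0.15 (unadjusted p = 0.334 in edgeR). Pde4b, the other main rolipram-sensitive enzyme, showed 4 Fmr1-/y libraries at 41.9 to 45.1 CPM, below every wild-type library (51.1 to 58.8 CPM), and 1 above them at 63.6 CPM. Its log2 fold change was -0.13 (unadjusted p = 0.169) with that library, number 4, and -0.22 (unadjusted p = 0.00737, adjusted p = 0.397) without it, both in edgeR. In the other 11 of 12 edgeR fits with a library left out, the unadjusted p of Pde4b was 0.05 or more, up to 0.335.

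The PKA subunits had estimates near 0, apart from Prkar2b. Prkaca (chromosome 8 from 83972978 to 83996444) had 177, 193 and 202 CPM in wild-type and 178, 188 and 202 CPM in Fmr1-/y libraries, with a log2 fold change of -0.02 (interval -0.13 to 0.10). Prkacb (chromosome 3 from 146729579 to 146812946) had 161, 175 and 192 CPM against 155, 163 and 215 CPM, and 0.00 (-0.18 to 0.18). The genotypes overlapped in both, and for Prkacb 2 Fmr1-/y libraries were below and 2 above the wild-type range. Prkar1a (chromosome 11 from 109649023 to 109669663) had 813, 877 and 952 CPM in wild-type and 779, 892 and 936 CPM in Fmr1-/y libraries, with -0.01 (-0.14 to 0.11). Prkar1b (chromosome 5 from 139017304 to 139150703) had 509, 581 and 630 CPM against 497, 567 and 666 CPM, with -0.03 (-0.19 to 0.13). Prkar2a gave -0.02 (-0.21 to 0.17) and Prkar2b 0.21 (-0.10 to 0.52), the widest interval of the 6 subunits. In Prkar2b, Fmr1-/y libraries 4 and 5, at 37.1 and 32.6 CPM, were above the highest wild-type library at 25.7 CPM, and the log2 fold change was 0.08 without library 4 and 0.13 without library 5. Adjusted p were 0.805 to 0.999 for the 6 subunits in edgeR, and the signs of Prkaca, Prkacb, Prkar1a, Prkar1b and Prkar2a depended on the setting or on single libraries.

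Among the 15 anchors, 9 were below 0 (60%, against 48.6% of all genes). Akap8 alone had an unadjusted p under 0.05 in edgeR (6.67% of the anchors, against 7.96% of all genes). In limma voom Akap8 did not reach it (unadjusted p = 0.0629) and Akap11, which was lower, did, so that the 5 members of limma voom were all lower. DESeq2 had both anchors at that level. Akap8 (Entrez 56399, chromosome 17 from 32303672 to 32321238), known for binding chromatin, had 50.3, 51.5 and 55.5 CPM in wild-type libraries. In Fmr1-/y libraries it had 51.9, 55.0 and 89.9 CPM, so that 3 of them were above every wild-type library. The log2 fold change was 0.24 (standard error 0.11, unadjusted p = 0.0434, adjusted p = 0.613 in edgeR). Without Fmr1-/y library 5, which held the highest value, it was 0.10 (unadjusted p = 0.139, adjusted p = 0.861). Akap8l, its neighbour on the same strand (chromosome 17 from 32321424 to 32350616), was at 90.5 CPM in the same library and at 45.0 to 52.4 CPM in the other Fmr1-/y libraries, within the wild-type range of 40.9 to 52.9 CPM. Its log2 fold change was 0.25 (unadjusted p = 0.102) with that library and 0.05 (unadjusted p = 0.514) without it. Library 5 was the deepest at 65565479 reads, and the part of depth was not tested.

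Akap11 (chromosome 14 from 78492246 to 78536980) had 287, 294 and 317 CPM in wild-type and 263, 276 and 298 CPM in Fmr1-/y libraries. 4 Fmr1-/y libraries were below the wild-type range and the others overlapped it (log2 fold change -0.11, interval -0.22 to 0.00, unadjusted p = 0.0562 and adjusted p = 0.636 in edgeR). The unadjusted p was 0.0424 in DESeq2 and 0.0485 in limma voom. Akap5 (chromosome 12 from 76324617 to 76334517) had 135, 159 and 163 CPM against 131, 147 and 171 CPM, with a log2 fold change of -0.04 (-0.20 to 0.12). Akap6 was at 0.00 (-0.13 to 0.14), Akap2 at -0.02 (-0.13 to 0.10) and Akap1 at -0.07 (-0.20 to 0.06). Of the remaining anchors at 10 CPM or more, Akap9, Akap17b and Akap12 were above 0 and Akap13, Akap10 and Akap7 below it, with log2 fold changes of -0.15 to 0.08.

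A list of 49 other genes of the pathway, taken by their known roles, was read from the same fit. It held 0 genes past an adjusted p of 0.05 in edgeR, DESeq2 or limma voom and 3 at an unadjusted p under 0.05 in edgeR (6.12%, against 7.96% of all genes), 4 in DESeq2 and 4 in limma voom. The median log2 fold change of the list was -0.013. Of the 7 G protein alpha subunits, 0 had an unadjusted p under 0.05 in edgeR and their log2 fold changes ran from -0.13 to 0.08. The same count was 0 of 5 for cyclase-associated genes, 0 of 3 for the protein inhibitors of PKA and 0 of 4 for the calcineurin subunits.

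Nbea, a large anchor of type II PKA known for membrane traffic at synapses, was the lower gene of the 3. It had 231, 258 and 286 CPM in wild-type and 206, 211 and 259 CPM in Fmr1-/y libraries, and 5 of the 6 Fmr1-/y libraries were below every wild-type library. Its fitted level was 85.3% of that in wild type, a log2 fold change of -0.23 (standard error 0.07, unadjusted p = 0.00432, adjusted p = 0.361 in edgeR and 0.138 in DESeq2). Of the 10 anchors with other names, 9 were below 0, against 48.6% of all genes. Their log2 fold changes ran from -0.27 for Gpr161 to -0.003 for Arfgef2. Nbea was the only 1 of the 10 with an unadjusted p under 0.05 in edgeR, against 7.96% of all genes. Ezr, an anchor at the membrane cytoskeleton, was above 0 at 0.22 (interval 0.00 to 0.44), and Gpr161, a receptor of the primary cilium that binds PKA, was at -0.27 (-0.55 to 0.00).

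Rapgef3, the cyclic AMP-activated exchange factor also called Epac1, had 11.2, 13.1 and 15.2 CPM in wild-type and 13.03, 18.3 and 20.6 CPM in Fmr1-/y libraries, 4 of which were above every wild-type library. Its fitted level was 131% of that in wild type, a log2 fold change of 0.39 (standard error 0.12, unadjusted p = 0.00536, adjusted p = 0.378 in edgeR). Rapgef4, the main exchange factor of neurons, was at 0.00 (-0.13 to 0.13). Ppp1r1b, the PKA-regulated phosphatase inhibitor DARPP-32, had 114, 142 and 145 CPM against 123, 171 and 193 CPM, with 4 Fmr1-/y libraries above the wild-type range. Its fitted level was 120% of that in wild type, a log2 fold change of 0.27 (standard error 0.10, unadjusted p = 0.0181, adjusted p = 0.499 in edgeR). The part of the astrocyte, choroid plexus and vessel markers, whose sums are given at the start, in these 2 genes was not tested. Creb1 was at -0.10 (-0.25 to 0.06), and its coactivator Crtc1 at -0.11 (-0.23 to 0.01).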

How the data were processed

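RNA on tagged ribosomes came from 6 wild-type and 6 Fmr1-/y pools, mapped to groups by the sample titles. Per the labels and the study's methods, the authors aligned stranded reads of polyadenylated RNA to UCSC mm10 with TopHat2 2.1.1 and Bowtie2 2.2.8, and counted reads on the opposite strand of each UCSC gene model with HTSeq 0.6.1p1 in union mode. The deposited values are raw counts per gene, without normalization. Union mode leaves reads shared by overlapping genes uncounted, and the treatment of multi-mapped reads is not given in the sources used here.

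The 17823 genes with at least 15 reads in total were fitted with edgeR 4.0.16 (TMM, quasi-likelihood test, no covariate, Benjamini-Hochberg over all genes, threshold 0.05) in R 4.3.3. DESeq2 1.42.0, limma 3.58.1 voom, sva 3.50.0 (1 surrogate variable), other scalings, other filters, a replicate block and each library left out were alternatives. A standard error is the size of the log2 fold change divided by the square root of F. Percentages of wild type come from the fitted fold change and its 95% interval. Levels are TMM-scaled CPM. Lengths are the union of GENCODE vM21 exons (GRCm38, the same build as mm10), from transcripts paired with RefSeq, matched by Entrez identifier for all 53 members; positions are those of RefSeq, not used here for Akap2. Floors of 3 reads and depth cover counting error only. Members named are the PKA subunits, the 5 highest cyclases, 8 highest phosphodiesterases and 6 highest anchors, the 10 smallest p, and genes known for plasticity or drugs; other pathway genes named are the 5 smallest p. Genes outside this rule were named after their values were seen. The members and lists were chosen with earlier results of these data known.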

Additional observations from a re-analysis of the deposited data

Results flagged for a closer look

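Within each genotype, 5 of 106 groups of 6 libraries held a value far from the nearest other one relative to the group's range (above Dixon's 95% critical value for 6 values), where about 5.3 would be flagged by chance. Fmr1-/y library 5 was high for Akap8l (90.5 CPM, others at most 52.4) and for its neighbour Akap8 (89.9 CPM, others at most 63.3). Wild-type library 4 was high for Akap14, a gene of motile cilia and sperm (2.59 CPM, others at most 1.70). The photoreceptor genes Pde6a (0.297 CPM in wild-type library 3) and Pde6c (0.0749 CPM in wild-type library 6) rest on 18 and 3 wild-type reads in all.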

How the results depend on the processing

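No member and no other pathway gene passed an adjusted p of 0.05 under any alternative run. The number of members at an unadjusted p under 0.05 was 5 with all libraries, 4 to 6 under the other scalings, tools and filters and with 1 surrogate variable, and 1 to 6 with single libraries left out: 1 without wild-type library 5, 2 without wild-type library 1, 2 without Fmr1-/y library 3 and 3 without wild-type library 2. The share of all genes at that level ran from 5.99 to 9.57% with single libraries left out, and was 5.99% without wild-type library 5. The filter of 10 reads in every library left 46 members. Other pathway genes at that level numbered 3, but 5 with library totals alone, 5 with a minimum of 1 read, 9 with a surrogate variable and 3 to 7 with single libraries left out. All genes at that level were 7.96%, and 8.31%, 8.01% and 10.8% under the first 3 of these settings. The members' median log2 fold change ran from -0.072 to -0.012.

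The replicate numbers that both genotypes carry come with no stated pairing. Same-numbered libraries deviated from their group means with a mean correlation of 0.025 over all genes (pairs from -0.081 to 0.090), of 0.155 over the 5987 genes with a mean log2 CPM over 5 (-0.443 to 0.599) and of 0.113 over the members (-0.331 to 0.472). In each of these sets at least 1 pair was below 0. These correlations cannot decide whether same-numbered pools belong together, since differently numbered ones were not compared. With no pairing stated, the numbers were not taken as pairs in the main fit. With the replicate block, 8 members and 6 other pathway genes had an unadjusted p under 0.05, with 8.39% of all genes.

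Of 698 log2 fold changes of named genes under an alternative, 662 kept their direction and side of the threshold, 0 crossed it and 36 changed sign, in 8 genes whose estimates lay near 0. With library totals alone the estimates were 0.005 for Prkaca, 0.014 for Prkar1a, 0.001 for Prkar2a, 0.021 for Adcy6 and 0.003 for Akap2. With limma voom they were -0.004 for Prkacb and -0.001 for Akap6, and with the replicate block -0.007 and -0.003. With a surrogate variable they were 0.035 for Prkar2a, 0.024 for Adcy6 and -0.027 for Akap6. With single libraries left out, Prkar1b ran from -0.084 to 0.003, Prkar2a from -0.073 to 0.023, Adcy6 from -0.048 to 0.032, Akap6 from -0.040 to 0.030, Akap2 from -0.039 to 0.003, Prkar1a from -0.033 to 0.020 and Prkacb from -0.061 to 0.037. The cause was not tested. Depth limits the 8 members below 1 CPM.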
